A study of Mus musculus with 8 samples.

Results

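The genes described here carry glucose into the cell, split it to pyruvate and turn pyruvate into lactate or restrain its oxidation in the mitochondrion. Others divert glucose phosphate into the pentose phosphate pathway. All these genes were taken from a fixed list of 34 genes, all of which were found among the 24112 gene IDs measured. Of these, 33 reached at least 1 RPKM (a read density corrected for gene length and library size) in at least 4 libraries and entered the test over 11276 genes. The remaining member, Eno2, did not.

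The libraries come from lineage-negative Sca1+ Kit+ (LSK) bone marrow cells, the fraction enriched for blood stem and early progenitor cells. The cells were sorted from C57BL/6 mice that had been transplanted with donor marrow. In the wild-type group (WT, 4 libraries) the donor marrow carried Vav-Cre, a Cre recombinase under the Vav promoter that is active in blood cells. In the knockout group (KO, 4 libraries) the marrow carried Vav-Cre and was Traf6-/-, and the study asked what this loss of the signalling adaptor TRAF6 does to blood stem cells. Both groups therefore share Cre and transplantation. The labels give no age and do not state that libraries of a group are separate mice, so every p-value reflects the spread among these libraries, possibly technical.

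Glycolysis turns glucose into pyruvate in the cytosol, and lactate dehydrogenase regenerates the NAD+ that the pathway consumes. Many of its steps can be run by isoenzymes from different genes that differ in tissue range, affinity or regulation. Blood stem cells in the marrow are known for leaning on glycolysis, with the oxygen-sensing factor HIF-1 and the pyruvate dehydrogenase kinases (PDKs) named as parts of that state. The pentose phosphate pathway branches off at glucose 6-phosphate and yields NADPH and ribose.

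Traf6 was at 14.9, 3.52, 9.40 and 7.10 RPKM in WT1 to WT4 and at 0.613, 0.818, 0 and 0.00721 RPKM in KO1 to KO4, so it was low in every library labelled KO (log2 difference -2.75 ± 0.53, SE, limma adjusted p = 0.341). Estimated depth was 19.3 to 30.7 M (mega) reads per library. KO3 and KO4 came from lane 5 and all others from lane 4. KO3 listed at 0 a total of 175 of the 3943 genes with a mean above 20 RPKM, against 6 to 61 in the other libraries, so a value of 0 is called listed at 0 below and is no proof of absence. Among the sort markers, Kit was at 50.6 to 113 RPKM over the 8 libraries and Cd34 at 178 to 284 RPKM, whereas Ly6a, which encodes Sca1, was at only 6.53 to 11.8 RPKM. The T and B cell genes Cd3e, Cd4, Cd8a, Ms4a1 and Cd79a stayed under 1 RPKM in all libraries, whereas Nkg7, a gene of natural killer and cytotoxic T cell granules on the same lymphoid list, was at 376 to 723 RPKM.

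The start regions of 4 members are shown first. They are the lactate dehydrogenase genes Ldha and Ldhb, whose ratio did not overlap between the groups, and Pgk1 and Pgam1. The KO levels of Pgk1 and Pgam1 all lay above the WT levels, as did those of Hk3 and Tpi1, which are not shown. Each line holds the 250 bases before the start of transcription, 5′ to 3′ on the strand of the gene, from RefSeq on GRCm38.p6. The regions are chr7:46845554-46845803 on the plus strand for Ldha (the first of its listed starts), chr6:142507958-142508207 on the minus strand for Ldhb, chrX:106186850-106187099 on the plus strand for Pgk1 and chr19:41911621-41911870 on the plus strand for Pgam1. Capitals mark ACGTG on either strand, a form of the core RCGTG (R is A or G) that HIF-1 is known to bind. The other form, GCGTG, is neither marked nor counted.
Ldha: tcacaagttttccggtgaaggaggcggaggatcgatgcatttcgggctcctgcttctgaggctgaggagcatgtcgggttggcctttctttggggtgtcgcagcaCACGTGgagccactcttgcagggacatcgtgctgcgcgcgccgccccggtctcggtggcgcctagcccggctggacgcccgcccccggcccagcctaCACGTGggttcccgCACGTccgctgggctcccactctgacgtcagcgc
Ldhb: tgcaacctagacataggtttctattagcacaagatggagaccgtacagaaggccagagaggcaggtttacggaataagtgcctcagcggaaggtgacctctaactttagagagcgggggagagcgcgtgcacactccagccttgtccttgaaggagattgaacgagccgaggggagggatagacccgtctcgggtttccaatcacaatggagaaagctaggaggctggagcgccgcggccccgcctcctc
Pgk1: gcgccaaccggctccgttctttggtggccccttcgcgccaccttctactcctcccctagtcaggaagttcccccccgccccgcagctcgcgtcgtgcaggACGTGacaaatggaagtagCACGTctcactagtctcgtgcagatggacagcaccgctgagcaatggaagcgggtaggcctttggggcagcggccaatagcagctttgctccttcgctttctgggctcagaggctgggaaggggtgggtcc
Pgam1: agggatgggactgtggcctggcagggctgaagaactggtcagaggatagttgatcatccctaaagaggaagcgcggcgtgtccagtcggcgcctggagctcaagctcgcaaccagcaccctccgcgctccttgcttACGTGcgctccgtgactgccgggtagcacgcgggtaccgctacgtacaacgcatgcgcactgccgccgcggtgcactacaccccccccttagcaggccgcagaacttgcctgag

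The Ldha stretch held 5 matches of ACGTG, of which 4 fall in its 2 copies of CACGTG, the E-box, where the matches on the opposite strands overlap. The Ldhb stretch held 0, the Pgk1 stretch 2 and the Pgam1 stretch 1. Of the windows not shown, that of Hk3 held 1, and those of Tpi1 and the second listed Ldha start held 0. The GC content was 67.2% for Ldha and 56.4% for Ldhb, with 25 and 14 CpG dinucleotides. Of 49 start windows listed for 33 members, 20 (40.8%) held ACGTG, against 16.6% of all 32851 windows of that length. CACGTG was in 7 of the 49 member windows (14.3%) and in 6.02% of all windows. Both strings contain a CpG, and the windows compared were not matched for CpG or GC content. Such a match is a string of letters and not a shown binding site, and windows of 1 gene can overlap.

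Over the whole list, no member passed the threshold, an adjusted p under 0.05 in limma (a linear model fitted to all genes tested). Of all 11276 genes, 0.0% passed, and the adjusted p of the 33 members ran from 0.466 to 0.998. At an unadjusted p under 0.05, 6 members were higher in KO (Hk3, Tpi1, Pgk1, Pgam1, G6pdx and Pgd), against 2.77% of all genes, and 2 were lower (Slc2a3 and Ldhb), against 4.74%. Of the 33 members, 20 had a positive log2 difference (KO minus WT, on the log2(RPKM + 1) scale, which understates changes of low genes), against 39.0% of all genes. The median log2 difference was 0.22 over the members and -0.14 over all genes tested. With quantile normalization, which brought the median of all genes to 0.00, the median of the members was 0.19. In that setting 23 members were positive, against 49.96% of all genes.

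Positive differences were more frequent among the abundant members. Of the 11 members with a mean above 100 RPKM, 10 had positive differences with a median of 0.33, and Taldo1 was the exception at -0.05. All 730 genes tested with such a mean had a median of 0.04, and 55.1% of them were positive. At an unadjusted p under 0.05 in limma, 3 of the 11 were higher in KO, where 62 of the 730 were. Of the 22 tested members at lower levels, 10 were positive and 12 negative, with a median of -0.14.

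**Figure D1:**
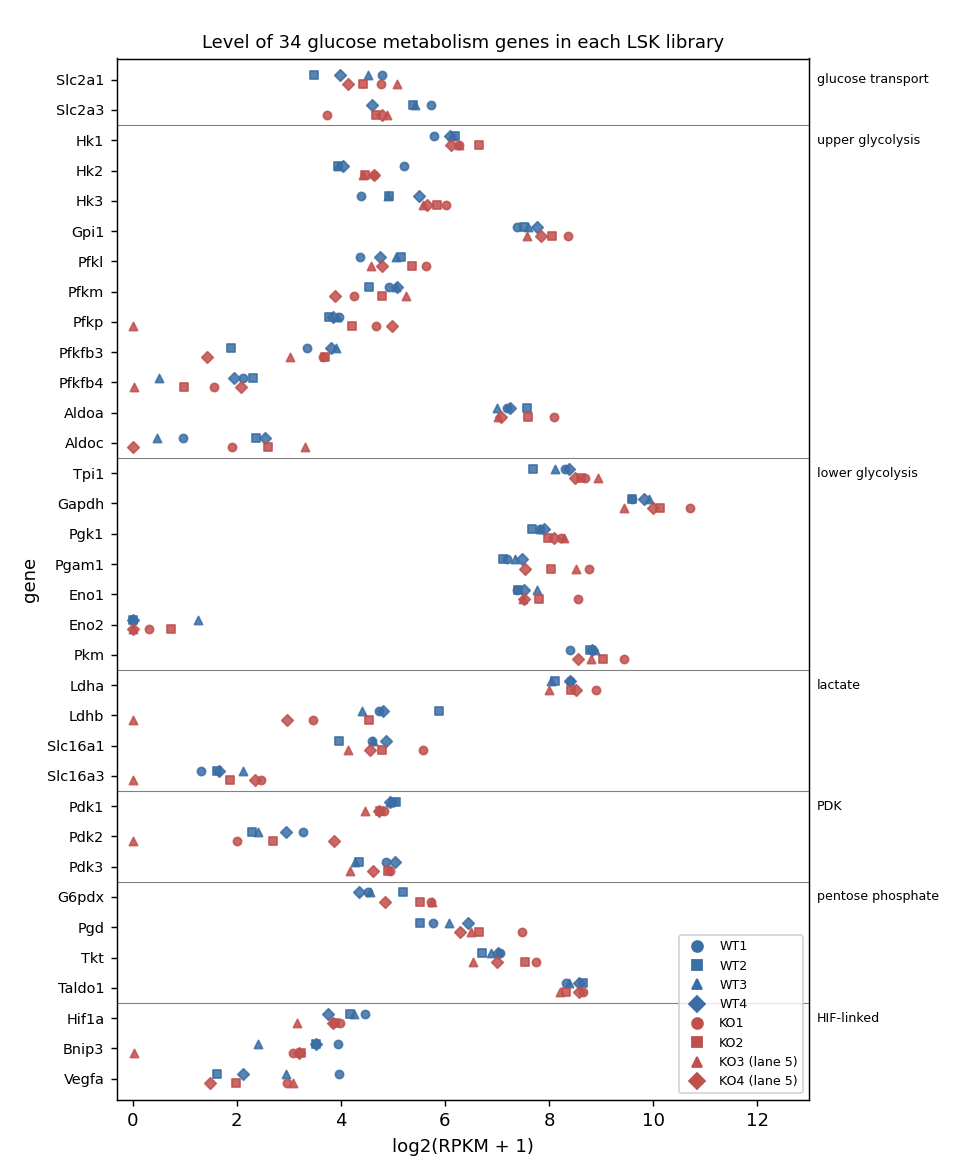
Level of each of the 34 genes in every library, as log2(RPKM + 1) on the horizontal axis, with blue for WT and red for KO and a marker shape for each replicate number. Gapdh sits highest and Eno2 lowest, and KO3 (red triangles) lies at or next to 0 for Pfkp, Pfkfb4, Ldhb, Slc16a3, Pdk2 and Bnip3 as well as Eno2.

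Glucose enters through the transporters GLUT1, encoded by Slc2a1, and GLUT3, encoded by Slc2a3, a carrier with high affinity for glucose. Slc2a3 was at 52.0, 41.1, 41.8 and 23.2 RPKM in WT, against 12.4, 24.4, 28.5 and 26.8 RPKM in KO. WT4 fell among the KO values and the other WT libraries lay above them. The log2 difference was -0.76 ± 0.33 (SE, n = 4 per group, limma adjusted p = 0.645). Slc2a1 was at 26.5, 10.2, 21.9 and 14.7 RPKM in WT and 26.2, 20.4, 32.7 and 16.7 RPKM in KO, and the groups overlapped. In WT the carrier of Slc2a3 thus led in transcript level in all 4 libraries, with a share of 68.3% ± 8.18 (SD, n = 4) of the summed RPKM of both genes. In KO that share was 32.1%, 54.5%, 46.6% and 61.7%, a mean of 48.7% ± 12.7. KO4 alone overlapped WT, whose lowest share was 61.2%. The exact 2-sided permutation p of the share was 0.0571, or 0.229 when adjusted over the 8 isoform families compared. With 4 libraries per group, no family by itself can fall under 0.05 once adjusted in this test. The difference of -19.6 percentage points was -14.0 without KO1 and -25.0 in the lane 4 libraries alone.

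Hexokinases trap glucose as glucose 6-phosphate. Hk1, the broadly expressed isoform bound to mitochondria, led in all 8 libraries, at 54.6, 72.0, 69.4 and 67.5 RPKM in WT and 76.6, 100.0, 76.3 and 68.4 RPKM in KO. Its share of the family was 56.5% ± 6.35 in WT and 51.1% ± 4.44 in KO (SD, n = 4). Hk3, an isoform typical of myeloid cells, came next. Hk3 was at 20.0, 29.4, 29.0 and 44.5 RPKM in WT, against 64.3, 57.0, 46.5 and 49.2 RPKM in KO, so every KO library lay above every WT library, by a narrow margin over WT4. Its log2 difference was 0.84 ± 0.25 (limma adjusted p = 0.515). Hk2, the inducible isoform, was at 14.3 to 15.6 RPKM in WT2 to WT4, at 35.9 RPKM in WT1 and at 20.4 to 24.0 RPKM in KO. Its share of the family was 17.5% ± 10.03 in WT and 14.4% ± 2.10 in KO (exact permutation p = 0.914, adjusted 1.0), and leaving out WT1 turned the difference from -3.13 to 1.88 points. Summed over the 3 genes, hexokinase was at 110 to 128 RPKM in WT and 142 to 178 RPKM in KO, without overlap.

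Gpi1, the isomerase that follows, was at 165, 182, 193 and 218 RPKM in WT and 328, 264, 190 and 230 RPKM in KO, with KO3 inside the WT range. Phosphofructokinase commits the sugar to glycolysis and is built from liver (Pfkl), muscle (Pfkm) and platelet (Pfkp) subunits. None of the subunits dominated: in WT their shares were 39.4% ± 8.18, 41.2% ± 6.65 and 19.4% ± 2.36 (SD, n = 4). In KO1 and KO2 Pfkl led with 53.3% and 47.6%, in KO3 Pfkm led with 61.7% and in KO4 Pfkp led with 43.1%. Pfkl was at 19.6, 34.8, 32.5 and 25.9 RPKM in WT and 48.9, 40.2, 23.0 and 26.7 RPKM in KO, and the groups overlapped. Pfkp was steady in WT at 12.8 to 14.6 RPKM and stood at 24.7, 17.5, 0.0106 and 30.7 RPKM in KO. It thus lay above all of WT in 3 KO libraries and next to 0 in KO3. The share of Pfkp differed by 3.26 points (exact permutation p = 0.629, adjusted 0.952), and the sign turned without KO4. Pfkfb3 and Pfkfb4 make fructose 2,6-bisphosphate, the activator of phosphofructokinase. Pfkfb3 spanned 2.70 to 14.0 RPKM in WT and 1.70 to 11.98 RPKM in KO, and Pfkfb4 stayed under 4 RPKM in every library.

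Aldolase was almost wholly Aldoa, which took 96.9% to 99.7% of the family in WT and 93.6% to 100.0% in KO. The level of Aldoa was 146, 191, 128 and 151 RPKM in WT and 271, 192, 130 and 134 RPKM in KO, where KO1 stood above the others. Without KO1 its log2 difference went from 0.19 to -0.03. Aldoc, the brain-type gene, reached at most 4.81 RPKM in WT and 8.93 RPKM in KO and was listed at 0 in KO4; its share gave an exact permutation p of 0.629 (adjusted 0.952).

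The later steps of glycolysis, from triose phosphate to pyruvate, held the most abundant members. Gapdh, the dehydrogenase that makes the first NADH, was at 776, 777, 967 and 903 RPKM in WT and 1667, 1119, 691 and 1023 RPKM in KO; its median rank among all genes tested was 80 in WT and 64 in KO. KO3 lay below all of WT and the other KO libraries above it. The log2 difference was 0.33 ± 0.24 (limma adjusted p = 0.734). Tpi1, the triose phosphate isomerase, was at 316, 205, 278 and 333 RPKM in WT and 413, 389, 491 and 361 RPKM in KO. Every KO value exceeded every WT value, and the log2 difference was 0.56 ± 0.19 (adjusted p = 0.604).

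Pgk1, the phosphoglycerate kinase that makes the first ATP of the pathway, was at 226, 202, 226 and 239 RPKM in WT and 298, 250, 310 and 273 RPKM in KO. The KO values again lay above all WT values, by a log2 difference of 0.34 ± 0.14 (limma adjusted p = 0.645). Pgam1, the mutase of the next step, had the highest positive difference of the members. It was at 145, 137, 161 and 178 RPKM in WT (mean 155 ± 18.2, SD, n = 4) and at 438, 261, 367 and 186 RPKM in KO (313 ± 112). KO4 stood just above WT4, and the other KO libraries far above it. The log2 difference of 0.94 ± 0.26 came with the smallest p of the members (0.00431 unadjusted, 0.466 adjusted over all genes). It was 0.75 without KO1 and 1.16 without KO4.

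Eno1, the enolase of most tissues, was at 165, 169, 217 and 182 RPKM in WT and 378, 222, 180 and 182 RPKM in KO, and KO3 and KO4 lay within WT. The listed values of Eno1b, a near-identical copy, were 0.924 to 1.005 times those of Eno1 in each library, so reads of the pair may not be told apart and the level of Eno1 is uncertain. Eno2, the neuronal enolase, was listed at 0 in WT1, WT2, WT4, KO3 and KO4 and was at most 1.39 RPKM elsewhere. Its share of the pair gave an exact permutation p of 1.0. Pkm, which encodes pyruvate kinase, was at 340, 444, 473 and 454 RPKM in WT and 691, 523, 445 and 374 RPKM in KO, with overlap. A value per gene does not separate the M1 and M2 splice forms of Pkm. Copies of several of these genes lie elsewhere in the genome as processed pseudogenes, and how the deposited values treat reads shared with them is not given in the sources used here.

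In all, 4 members were higher in KO without overlap between the groups (Hk3, Tpi1, Pgk1 and Pgam1), against 2.05% of all genes tested, and 1 was lower (Pdk1), against 3.88%. Together they are 5 of the 34, where 5.92% of the genes tested did not overlap in either direction. Of the 11 members with a mean above 100 RPKM, 3 were higher without overlap, where 39 of the 730 genes of that level were. Of the same 11, 0 were lower without overlap, where 20 of the 730 were. Of the 6 tested genes from Tpi1 to Pkm, all had positive log2 differences, between 0.22 and 0.94. In the lane 4 libraries alone, 16 members were higher without overlap, where 10.7% of all genes were, and 1 was lower, where 13.5% were. The 16 comprised Hk1, Hk3, Gpi1, Pfkl, Pfkp, Aldoa, Tpi1, Gapdh, Pgk1, Pgam1, Eno1, Pkm, Ldha, G6pdx, Pgd and Tkt. There the KO side is KO1 and KO2 only. Without KO3 the count was 8 (4.35% of all genes), and without KO4 it was 7 (4.47%). Without WT2, KO3 and KO4, which listed the most abundant genes at 0, 16 were higher (14.5% of all genes) and 2 lower (19.7%). With libraries weighted by their spread, 1.45% of all genes passed an adjusted p under 0.05 in limma (0.594% of all genes were higher), and 2 members passed: Pgam1 (0.82 ± 0.18, adjusted p = 0.0498) and G6pdx (0.99 ± 0.17, adjusted p = 0.0242).

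**Figure D2:**
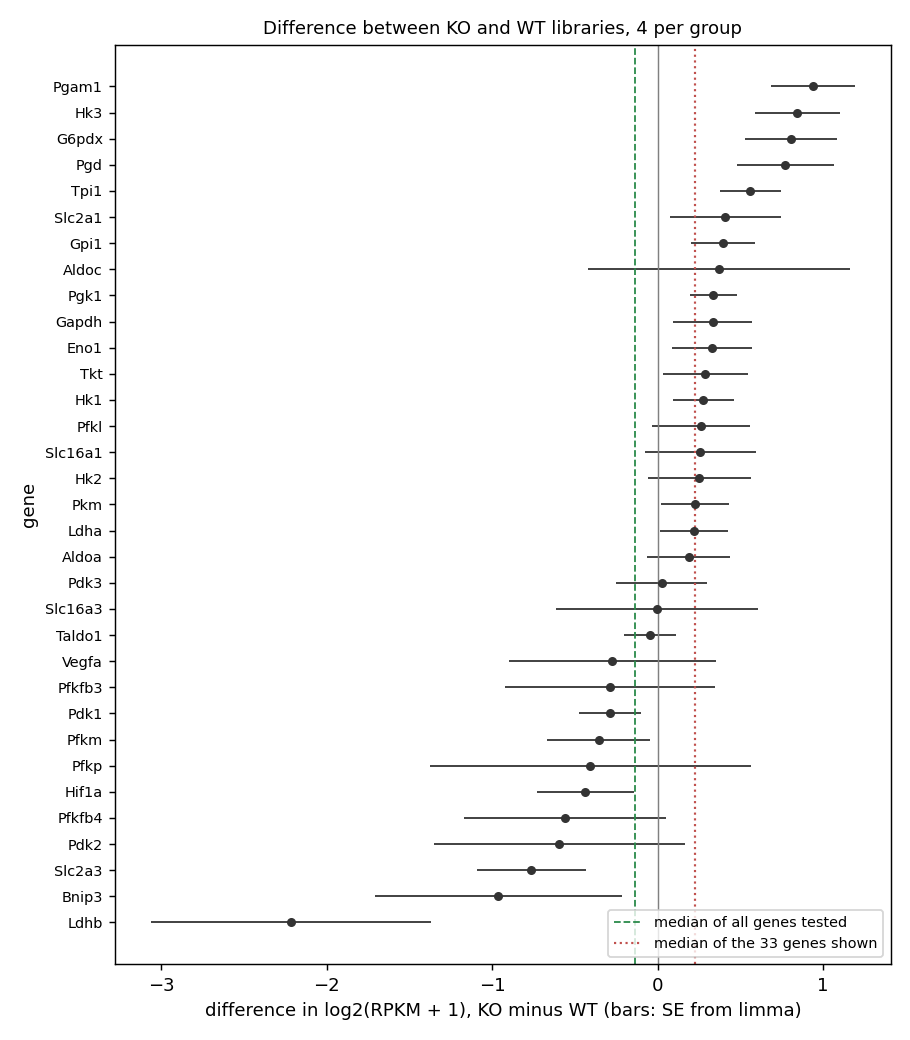
Difference of each of the 33 tested genes, KO minus WT in log2(RPKM + 1), with SE bars from limma, ordered by size. The dashed line marks the median of all genes tested at -0.14 and the dotted line the median of the genes shown at 0.22. Pgam1, Hk3, G6pdx and Pgd stand at the top, and Ldhb at -2.22 at the bottom has a wide error.

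Across the steps, the summed levels in WT were lowest for lactate transport at 24.7 ± 5.87 RPKM and then ran from glucose transport at 57.9 ± 17.3 RPKM and phosphofructokinase at 71.2 ± 6.22 RPKM through hexokinase at 117 ± 7.57 RPKM to Gapdh at 856 ± 95.2 RPKM (SD, n = 4). Glucose transport and phosphofructokinase overlapped in WT, at 38.0 to 78.5 and 63.8 to 78.8 RPKM, and both lay below hexokinase, at 110 to 128 RPKM. Phosphoglycerate mutase (155 ± 18.2), aldolase (156 ± 28.0), enolase (184 ± 24.1) and Gpi1 (190 ± 22.3) followed with ranges that overlapped. Pgk1 was at 223 ± 15.6, Tpi1 at 283 ± 56.9, lactate dehydrogenase at 336 ± 39.4 and pyruvate kinase at 427 ± 59.7 RPKM. In KO, lactate transport at 31.0 ± 14.6, glucose transport at 47.0 ± 9.80 and phosphofructokinase at 76.9 ± 14.1 RPKM had the lowest means, and phosphoglycerate mutase stood at 313 ± 112, above aldolase (186 ± 65.3), enolase (241 ± 93.6) and Gpi1 (253 ± 58.3) on average, with overlapping ranges.

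Lactate dehydrogenase is a tetramer of A subunits, which favour the making of lactate, and B subunits, which favour its oxidation. Ldha was at 340, 277, 260 and 336 RPKM in WT and 479, 340, 255 and 364 RPKM in KO, and the groups overlapped (log2 difference 0.22 ± 0.20, limma adjusted p = 0.778). Ldhb was at 25.7, 58.1, 20.2 and 27.2 RPKM in WT, against 10.02, 22.4, 0 and 6.84 RPKM in KO. KO2 alone reached the WT range, WT2 stood above the other WT libraries, and KO3 listed the gene at 0. The log2 difference of Ldhb was -2.22 ± 0.85 (adjusted p = 0.634), and it was -1.30 without KO3, -0.96 in lane 4 alone and -0.65 without WT2, KO3 and KO4.

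The share of Ldhb in the pair did not overlap between groups. It was 7.03%, 17.3%, 7.18% and 7.51% in WT, against 2.05%, 6.17%, 0% and 1.84% in KO, a difference in means of -7.24 points. The exact 2-sided permutation p was 0.0286, the smallest that the 70 assignments of 4 and 4 libraries allow, and 0.229 when adjusted over the 8 families. A single family at that smallest p cannot fall under 0.05 once adjusted, so the adjusted p cannot decide here. Without KO3 the difference was -6.40 points, without WT2 it was -4.72 points, and leaving out WT2, KO3 and KO4 gave -3.13 points. Ldha thus held 82.7% or more of the pair in every library. The start region of Ldhb above is the less GC-rich of the pair. It holds 0 copies of ACGTG, but it does hold the unmarked form GCGTG.

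Lactate leaves the cell through the monocarboxylate carriers MCT1, encoded by Slc16a1, and MCT4, encoded by Slc16a3. Slc16a1 was at 23.4, 14.5, 23.4 and 28.3 RPKM in WT and 46.9, 26.7, 16.6 and 22.5 RPKM in KO, and its log2 difference of 0.26 became -0.01 without KO1. Slc16a3 stayed at 1.48 to 3.35 RPKM in WT and was at 4.53, 2.68, 0 and 4.10 RPKM in KO, so MCT1 transcripts made up 90.5% ± 3.47 of the pair in WT and 91.7% ± 6.33 in KO (SD, n = 4). The share of Slc16a3 gave an exact permutation p of 0.714 (adjusted 0.952).

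**Figure D3:**
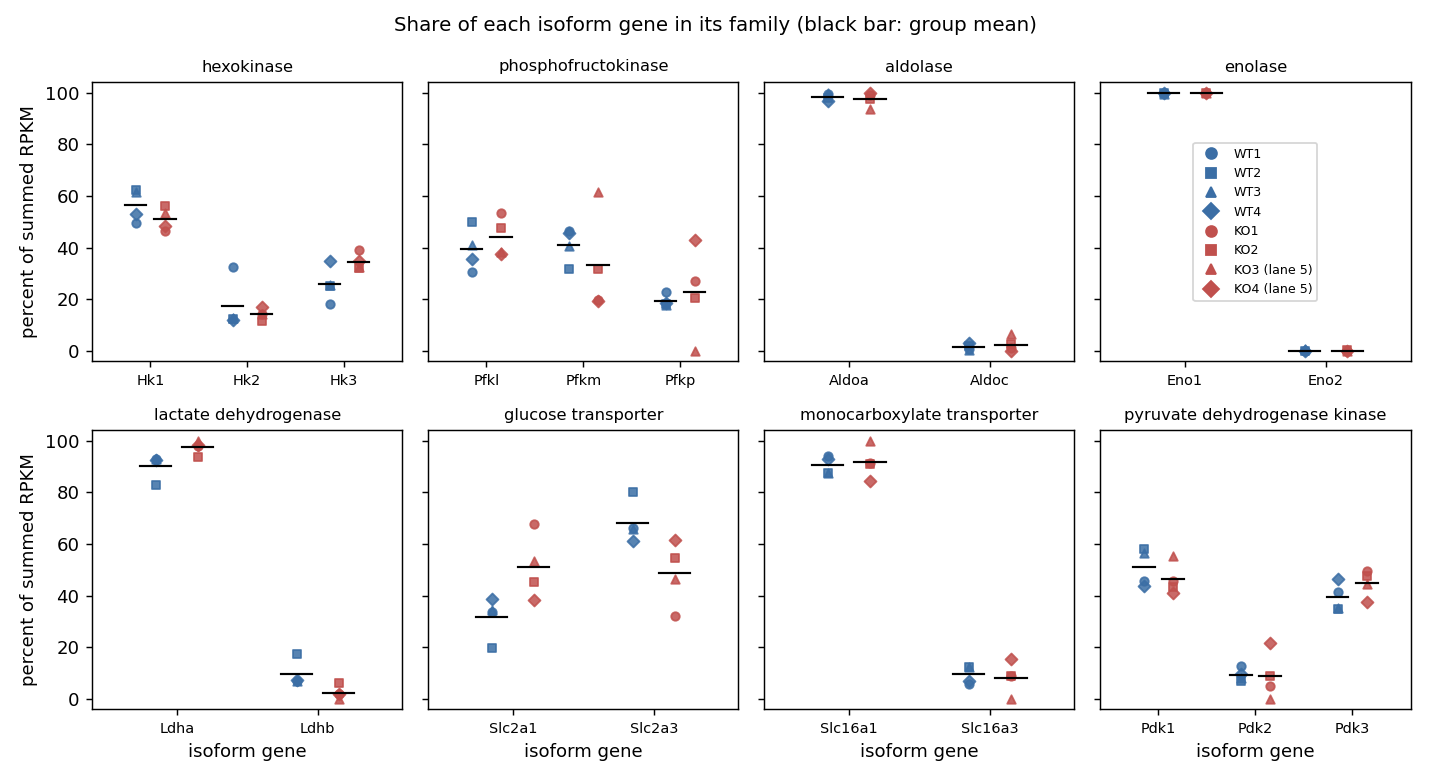
Percent of the summed RPKM of a family taken by each isoform gene, with 1 panel per family, a point per library (blue WT, red KO) and a black bar at the group mean. The Ldhb points of KO lie at 6.17% or less and those of WT at 7.03% or more, and the Slc2a3 points of KO lie below those of WT except in KO4.

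The PDKs phosphorylate pyruvate dehydrogenase and so restrain the oxidation of pyruvate in the mitochondrion. Pdk1, a HIF-1 target, was tight in WT at 31.2, 32.4, 29.7 and 29.8 RPKM and stood at 27.3, 26.1, 21.2 and 25.8 RPKM in KO. No KO value reached the WT range, but the difference was small (-0.29 ± 0.19, limma adjusted p = 0.718). Alternative settings gave -0.33 to -0.17, but they reuse the same libraries, so their shared sign is no further support. Pdk3 was close behind at 18.4 to 31.8 RPKM in WT and 17.0 to 29.7 RPKM in KO and exceeded Pdk1 in 3 of the 8 libraries. Pdk2 was lower, at 3.90 to 8.70 RPKM in WT and from 0 in KO3 to 13.5 RPKM in KO4. Pdk1 made up 51.1% ± 7.39 of the family in WT and 46.3% ± 6.39 in KO (exact permutation p = 0.229, adjusted 0.610).

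In the pentose phosphate pathway, both oxidative dehydrogenases had positive differences. G6pdx, which encodes the enzyme of the first NADPH-forming step, was at 22.1, 35.5, 22.7 and 19.3 RPKM in WT and 52.4, 44.9, 52.8 and 27.7 RPKM in KO. KO4 lay below WT2, and the other KO libraries lay above all of WT. The log2 difference was 0.81 ± 0.28 (limma adjusted p = 0.626). Pgd, of the second NADPH-forming step, was at 53.8, 44.9, 66.7 and 85.7 RPKM in WT and 177, 99.5, 89.4 and 76.9 RPKM in KO, where KO4 lay below WT4 (0.77 ± 0.29, adjusted p = 0.634). It was 0.52 without KO1.

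Of the non-oxidative enzymes, the list holds Tkt and Taldo1, both above 90 RPKM in every library. Tkt, the transketolase, was at 132, 104.4, 117 and 129 RPKM in WT and 213, 185, 91.8 and 127 RPKM in KO. Taldo1, the transaldolase, was at 320, 399, 331 and 382 RPKM in WT and 401, 320, 294 and 379 RPKM in KO, with overlapping groups and a log2 difference of -0.05 ± 0.16.

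The 3 HIF-linked members all had negative log2 differences, as had 6878 of all 11276 genes tested, and none passed the threshold. Hif1a, the oxygen-regulated subunit of HIF-1, was at 21.0, 17.1, 17.97 and 12.4 RPKM in WT and 14.9, 13.8, 7.91 and 13.4 RPKM in KO. WT4 lay within KO (log2 difference -0.44 ± 0.29, limma adjusted p = 0.723). HIF-1 is controlled largely through protein stability, which these data do not measure. Bnip3, a mitophagy receptor, was at 4.33 to 14.4 RPKM in WT, against 7.48, 8.45, 0.0252 and 8.20 RPKM in KO. Vegfa, the vascular growth factor, ranged from 2.07 to 14.6 RPKM in WT and from 1.81 to 7.51 RPKM in KO.

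A further 58 genes of glucose, pyruvate and HIF metabolism were examined beside the list, of which 43 were tested. None passed the threshold, 18 had positive and 25 negative differences, and their median was -0.08. The transporter genes Slc2a2 and Slc2a4 were listed at 0 in all libraries, as were Fbp2, Tktl2 and Adm. At an unadjusted p under 0.05, 3 were higher in KO (2.77% of all genes were) and 1 lower (4.74%); they are named here after their values were seen. Mpc2, a subunit of the mitochondrial pyruvate carrier, was at 12.7 to 35.7 RPKM in WT and 31.4 to 129 RPKM in KO. Rpia, the ribose phosphate isomerase, was at 19.5 to 56.5 RPKM in WT and 54.5 to 84.97 RPKM in KO. Slc2a6 was listed at 0 in 3 WT libraries and in KO3 and was at 3.50 to 6.83 RPKM in the other KO libraries. Ddit4, a stress-induced inhibitor of mTOR signalling, was at 24.2 to 31.3 RPKM in WT and 6.93 to 24.8 RPKM in KO. Arnt, the partner subunit of Hif1a, did not overlap between groups, at 12.2 to 17.6 RPKM in WT and 8.39 to 11.7 RPKM in KO, with a limma adjusted p of 0.678. It was the only 1 of the 43 without overlap in that direction, against 3.88% of all genes.

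The abundant members were not evenly higher over the KO libraries. Relative to the WT mean of each gene, the median of the 11 members above 100 RPKM was 1.73 in KO1, 1.25 in KO2, 0.980 in KO3 and 1.195 in KO4, against 0.915 to 1.07 in the WT libraries. KO1 held the highest value of 9 of the 11 (81.8%), whereas 9.93% of all genes tested were highest in KO1. That share was not taken over abundant genes alone, so the sets compared differ in level. Tpi1 and Pgk1 were highest in KO3. Without KO1 the median log2 difference of the 11 was 0.11, and 9 of 11 were positive. All 34 members summed to 3577 to 4021 RPKM in WT and to 6267, 4673, 3938 and 4119 RPKM in KO1 to KO4, and KO3 lay within WT.

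Markers of other cell types were measured in the same libraries. Of 10 granulocyte-monocyte progenitor markers, all had positive log2 differences, and their summed level was 624 to 1864 RPKM in WT and 8050, 3760, 2913 and 2148 RPKM in KO1 to KO4. None of the 10 passed the threshold (limma adjusted p of 0.451 to 0.942), and none was under 1 RPKM in all libraries. Mpo, Ctsg, Cebpa, Irf8 and Csf1r were higher in KO without overlap, against 2.05% of all genes tested. Elane, Prtn3, Cebpe, Ms4a3 and Gfi1 overlapped. Elane, at 228 RPKM in KO4, lay there below 3 WT libraries, and Cebpe was listed at 0 in WT1, WT2, KO3 and KO4. KO1 was highest both for the marker sum and for 9 of the 11 abundant members, whereas KO3 lay above all of WT for the marker sum but at a median of 0.980 for the abundant members. Of 7 LSK sort and stem cell markers, all had negative differences. Their sum, most of it Cd34, was 389 to 495 RPKM in WT and 279 to 416 RPKM in KO. Flt3 and Mecom were lower in KO without overlap, against 3.88% of all genes tested, and the other markers on that list overlapped. The lymphoid list, nearly all of it Nkg7, summed to 398 to 455 RPKM in WT and 376 to 723 RPKM in KO, where KO4 was highest. Of 8 proliferation markers 5 were positive, with sums of 800 to 952 RPKM in WT and 848 to 1017 RPKM in KO. Mki67 was lower in KO without overlap, at 79.6 to 94.6 RPKM in WT and 50.8 to 76.7 RPKM in KO. The other proliferation markers overlapped. The 6 tested erythroid markers of 7 had 2 positive differences, with sums of 128 to 253 RPKM in WT and 59.1 to 222 RPKM in KO. Of 3 mature myeloid markers tested, 2 were positive, and the 5 measured summed to 121 to 176 RPKM in WT and 150 to 198 RPKM in KO. Most of that sum was Lyz2, which overlapped, as did S100a9. Itgam did not overlap, at 0.707 to 2.76 RPKM in WT and 5.92 to 22.8 RPKM in KO. In sorted bulk cells, a shift in the mix of cells and a change in RNA per cell cannot be told apart, and the part of these markers in the results was not tested.

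**Figure D4:**
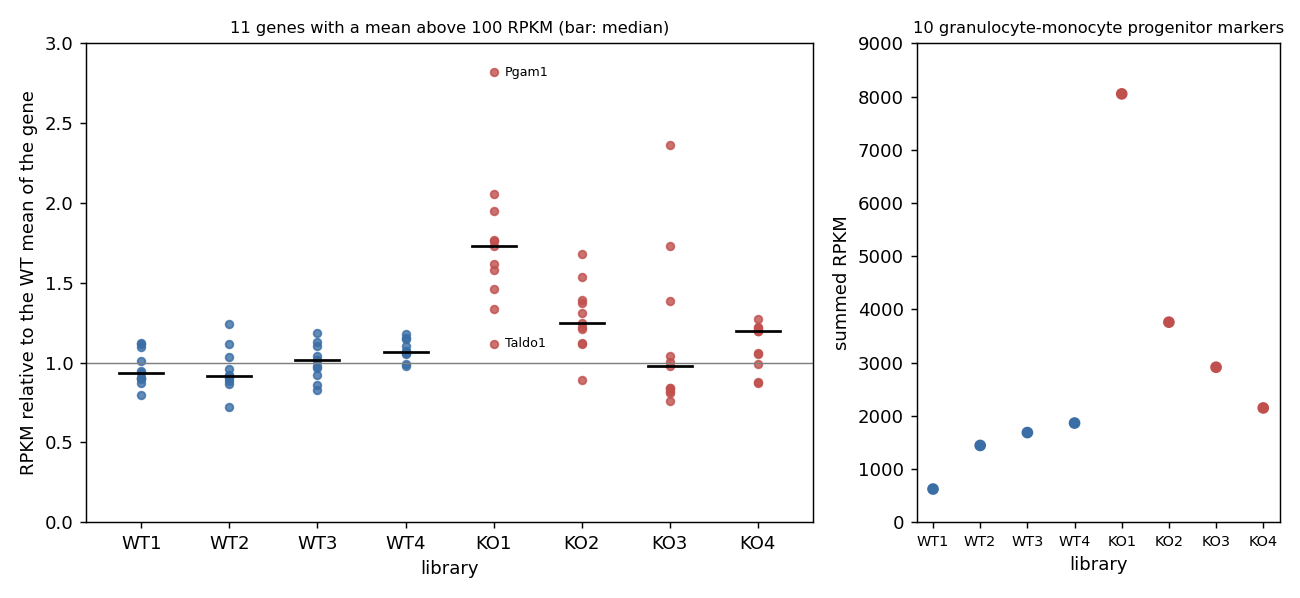
Left, RPKM of the 11 genes with a mean above 100 RPKM in each library, divided by the WT mean of the gene, with a bar at the median. Right, summed RPKM of 10 granulocyte-monocyte progenitor markers in the same libraries. KO1 is highest in both panels, at a median of 1.73 and a sum of 8050 RPKM.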

How the data were processed

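Poly(A) RNA was sequenced from 8 LSK libraries, 4 WT and 4 KO by their titles. The submitters' processing notes list TopHat, edgeR and mm9, used by the authors in roles not given. The values deposited by the authors are RPKM, 1 per Entrez gene ID and library. The unit was inferred from the values, because times transcript length they sum to 1.14 to 1.17 M (mega) per library. Depth was estimated from low values (0.2 RPKM or less), where 50.5% to 61.2% of 49 to 95 values were whole reads within 0.03, so no count test was run.

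Symbols came from a GRCm38.p6 gene table (24029 of 24112 IDs). Genes reaching 1 RPKM in 4 or more libraries were tested as log2(RPKM + 1) with limma 3.58.1 in R 4.3.3 (trend, robust, Benjamini-Hochberg). A check on simulated data used changes larger than that of any member, so it does not show that smaller ones would be found. Isoform shares were tested by exact permutation (scipy 1.17.1), where no family by itself could pass 0.05 after adjustment over the 8 families. Members and lists were chosen with earlier results of these data known, and some listed genes are not reported here. Values per library are given for the leading gene of each family, members with unadjusted p under 0.05 or without overlap, and Hif1a, and also for further members. Alternatives covered the filter, pseudocount, lane, replicate block, quantile normalization, library weights and libraries left out.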

Additional observations from a re-analysis of the deposited data

Results flagged for a closer look

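In 84 groups of 4 values (members and tested shares, WT or KO), 7 held a library whose gap to the nearest other passed Dixon's critical value, where chance gives about 5%. Hk2 was at 35.9 RPKM in WT1, far above the other WT libraries, and its share of the hexokinase family there was 32.5%. The share of Pfkp was 22.9% in WT1, above the other WT libraries. Eno2 was at 1.39 RPKM in WT3 and listed at 0 in the other WT libraries, a share of 0.639%. The share of Ldhb was 17.3% in WT2, and Bnip3 was at 0.0252 RPKM in KO3, below the other KO libraries.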

How the results depend on the processing

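Of all genes tested, 0 were higher and 0 lower past the threshold in limma, and at an unadjusted p under 0.05 there were 312 and 535. The lower count was 2 in lane 4 alone, 3 without WT2, KO3 and KO4, and 0 to 2 when 1 library was left out. With library weights (6.50 for KO2, 0.137 for KO3) 67 genes were higher and 97 lower, 1.45% of all genes, and 2 members passed: G6pdx (0.99, adjusted p = 0.0242) and Pgam1 (0.82, adjusted p = 0.0498). No other setting called a member. Members higher in KO without overlap numbered 16 in lane 4 alone and without WT2, KO3 and KO4, and 4 to 8 with 1 library left out (2.70% to 4.47% of all genes); those lower numbered 2 without WT2, KO3 and KO4 and 1 to 3 with 1 library left out (4.90% to 7.55%). The median difference of the members stayed positive, at 0.06 to 0.31 with 1 library left out. Leaving out 1 library moved the log2 difference of Aldoa between -0.0258 and 0.33 and that of Slc16a1 between -0.0144 and 0.47, in both cases lowest without KO1. The differences in share then ran from -4.89 to 1.88 points for Hk2, -3.54 to 10.8 for Pfkp, -0.350 to 1.80 for Aldoc, -0.138 to 0.0908 for Eno2 and -3.56 to 1.57 for Slc16a3, so their signs rest on single libraries. Pfkp also turned as a log2 ratio (-0.41), Eno2 in lane 4 alone (0.0219) and Slc16a3 without WT2, KO3 and KO4 (0.416). The cause was not tested. The shares of Ldhb, Slc2a3 and Pdk1 kept their sign in all settings, which reuse the same libraries.

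Same-numbered WT and KO libraries did not deviate together (correlations of -0.080 to -0.038). Of 8 libraries, 0 matched their own number best. The main test used no pairing, and a weak pairing by number is not excluded. With the replicate number as a block, 0 genes were higher and 0 lower past the threshold and 0 members passed. The shares say nothing here, since 4 pairs allow no exact p below 0.125. Because depth is only estimated, no counting interval is given, and low members such as Aldoc, Eno2, Pfkfb4 and Slc16a3 rest on few reads.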
